A study of Homo sapiens with 6 samples.

Results

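The baseline transcriptome of SH-SY5Y cells given only the vehicle dimethyl sulfoxide (DMSO) was read from 3 Illumina bead arrays, out of 6 arrays in the series. A gene was called detected where at least 1 of its probes had a detection p-value under 0.05 on all 3 arrays. That p-value sets a probe's signal against the array's negative control probes. By this rule 10334 of 16578 named genes were detected (62.3%), 5346 had no probe above background on any array (32.2%) and 898 lay in between, above background on 1 or 2 arrays (5.42%). Genes of the middle class are counted in neither of the others. Counted by probe, 12523 of 22184 were above background on all 3 arrays, of which 11393 carried a gene symbol.

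SH-SY5Y is an established human neuroblastoma line, a subclone of SK-N-SH. Each array samples the pooled RNA of cultured cells, and whether those cells were uniform was not tested. The cells were grown in DMEM/F12 with 10% fetal bovine serum and antibiotics at 37 °C in 5% CO2, and all 3 samples received DMSO. The labels number the replicates 1 to 3 but do not say that they were separate cultures, so the spread between them may be technical. The concentration of DMSO and the length of exposure are not given in the sources used here.

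Neuroblastoma arises from the sympathoadrenal branch of the neural crest, the embryonic lineage that also forms sympathetic neurons and the chromaffin cells of the adrenal medulla. In that lineage a circuit of transcription factors, among them PHOX2A, HAND2 and GATA3, switches on the enzymes that make noradrenaline from tyrosine. TH makes L-DOPA, DDC turns it into dopamine and DBH turns dopamine into noradrenaline, which is stored in granules with chromogranins. Neuroblastoma lines can also take a mesenchymal-type state, in which this circuit is low and genes of motile neural crest cells are high.

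Levels are normalized log2 intensities, each gene being read from 1 probe, and errors are SDs over the 3 arrays. Probes differ in how well they bind, so an order of genes by level is an order of brightness and not of transcript number. Among detected genes the level ran from 5.52 to 14.76, with a median of 8.74. The 207 genes just inside the rule, whose weakest array had p from 0.04 to 0.05, had a median level of 5.68 (range 5.52 to 6.09). The 174 genes just outside it, with p from 0.05 to 0.06, had a median of 5.60 (range 5.44 to 6.07). These ranges overlap almost fully.

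Olfactory receptor genes, which serve the nasal epithelium, gave a measure of how low a level can still be called. Of 358, 36 were detected (10.1%). The 99th percentile of the levels of all 358, detected or not, was 6.72, and 4 of them lay above it. This level was chosen after the data were seen, and below it is called the olfactory level. Of all named genes 51.0% were detected and also above it. OR2A1 was the only olfactory receptor above 8, at 9.38, 9.55 and 9.88 on the 3 arrays.

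**Figure D1:**
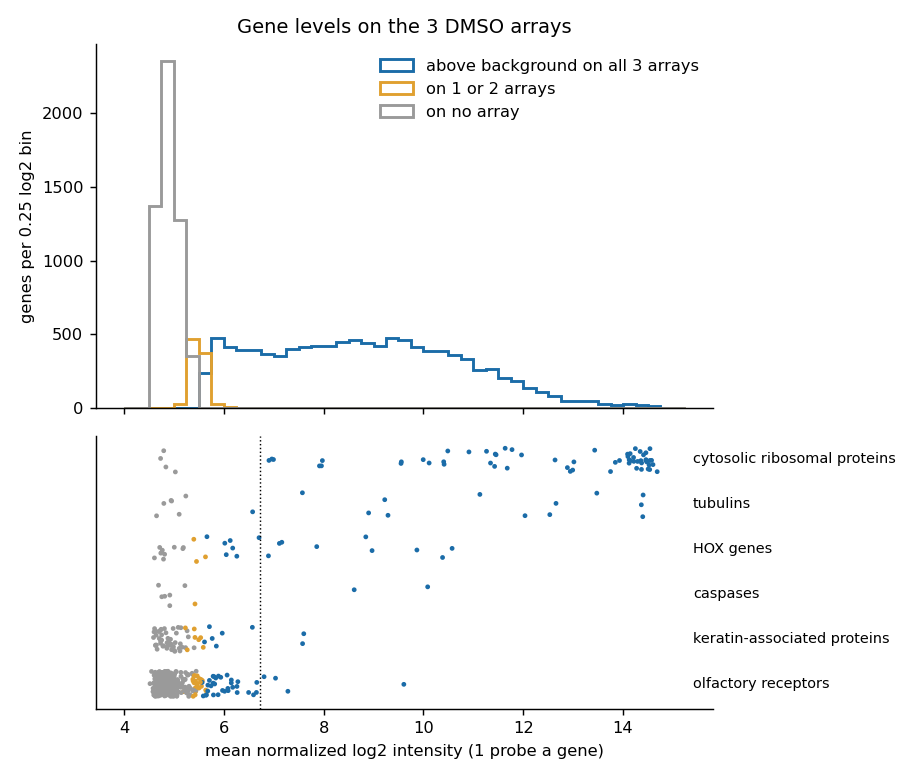
The upper panel counts genes by mean normalized log2 intensity over the 3 DMSO arrays, in bins of 0.25, for genes above background on all 3 arrays (blue), on 1 or 2 (orange) and on none (grey). In the lower panel each point is a gene of 1 of 6 families, coloured in the same way and spread at random in height, and the dotted line is the olfactory level of 6.72. Most ribosomal protein genes lie far above that line, and 298 of 358 olfactory receptors were above background on no array.

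A call of no signal does not show that a gene is silent. RPL10, which encodes a protein of every cytosolic ribosome, had signal at background on all 3 arrays, with levels of 4.82, 4.83 and 4.74. EIF4E, which binds the cap of messenger RNA in all cells, was likewise at background, at 4.93, 4.86 and 4.79. Each was read from a single probe, as were 4888 of the 5346 genes without signal (91.4%), against 83.5% of detected genes. Where a gene had several probes they often differed: in 867 of 2272 such genes (38.2%) 1 probe was above background on all 3 arrays and another on none. GNAS, among the brightest genes, had probes at 14.46, 6.04 and 4.65. In 904 pairs of detected probes of the same gene, the brighter exceeded the dimmer by a median of 1.81 log2 units.

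The brightest genes were those of protein synthesis and of the neuronal cytoskeleton. Of the 25 brightest, 17 encode proteins of the cytosolic ribosome, 3 encode tubulins and 1 encodes the elongation factor EEF1A1. TPT1, a growth-associated protein whose messenger RNA is regulated together with those of ribosomal proteins, was at the top with 14.78, 14.78 and 14.72. It was followed by RPS6, a protein of the small ribosomal subunit, at 14.72, 14.56 and 14.78, and by EEF1A1, which brings transfer RNA to the ribosome, at 14.65, 14.63 and 14.57. RPL38 was at 14.60, RPL9 at 14.57, and RPL8 and RPS3 both at 14.54. The order among these genes differed between arrays, RPS6 being brighter than TPT1 on replicate 3. The remaining ribosomal genes of this group were RPS15A, RPS13, RPL12, RPS25, RPL6, RPL19, RPS29, RPL11, RPL30, RPS19, RPS20 and RPS10, with means between 14.36 and 14.53.

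A neuron-enriched gene stood among them. STMN2, which encodes a microtubule regulator of growing axons, was at 14.56, 14.72 and 14.47. The α-tubulins TUBA1A, at 14.41, 14.50 and 14.30, and TUBA1B, at 14.42, 14.31 and 14.45, and the neuronal β-tubulin TUBB2B, at 14.36, 14.39 and 14.35, were close in brightness. GNAS, the stimulatory G protein α subunit, had 14.38, 14.65 and 14.34 on its brightest probe. GAPDH, an enzyme of glycolysis, had 14.44, 14.38 and 14.29. In each of these genes the 3 arrays lay close together, replicate 2 being highest for STMN2, TUBA1A, TUBB2B and GNAS. Among the 100 brightest genes 33 were ribosomal, 7 were translation factors and 3 were tubulins. Of 66 ribosomal protein genes 62 were detected (93.9%), with a median level of 13.89. Of 61 translation initiation and elongation factor genes 59 were detected (96.7%), against 62.3% of all named genes.

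Of the 3 genes taken to mark the line, DBH and GATA3 were bright and HAND2 had no signal. DBH, which makes noradrenaline and lies at chr9:133636363-133659329 (GRCh38), was at 13.52, 13.41 and 13.52. GATA3, a zinc finger transcription factor at chr10:8045333-8075198, was at 11.24, 11.46 and 11.32. Both were far above the olfactory level on every array. HAND2, a basic helix-loop-helix factor at chr4:173526091-173530229, had 5.03, 4.86 and 5.11, with detection p-values of 0.179, 0.357 and 0.155. Its single probe was thus at background on all arrays, and a silent gene and a probe that does not bind its transcript cannot be told apart here. Its paralog HAND1, a related factor of sympathetic and heart development, was bright, at 12.21, 12.27 and 12.29.

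Of 26 transcription factor genes of the noradrenergic type with a probe, 25 were detected (96.2%, against 62.3% of all named genes), 24 of them above the olfactory level. Their median was 11.03, against 8.74 for all detected genes. This list was chosen with earlier results of these data known, so its share is a description and no test of lineage. PHOX2A, a homeodomain activator of DBH at chr11:72239077-72244176, was at 11.75, 11.44 and 11.87. ISL1, a LIM homeodomain factor of sympathetic neurons, was at 12.96, 13.05 and 13.07, and was among the brightest of the list. MEIS2, a homeodomain cofactor, was at 13.13, 13.02 and 13.14. SOX11, an SRY-box factor of immature neurons, was at 12.56, 12.93 and 13.02, and its relative SOX4 was at 12.04, 12.43 and 12.20. MYC was at 12.55, 12.37 and 12.25, while MYCN, the oncogene amplified in many high-risk neuroblastomas, had a mean of 7.68 ± 0.10 (SD, n = 3). The MYC and MYCN levels come from different probes and do not give a ratio of transcripts. GATA2 (mean 11.48), TFAP2B (mean 11.48), TCF4 (mean 12.07) and TBX2 (mean 11.24) were also well above background.

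The catecholamine and granule genes ran from very bright to the edge of detection. Of 19 with a probe, 17 were detected (89.5%), but only 11 were above the olfactory level (57.9%, against 51.0% of all named genes). VGF, a peptide precursor of secretory granules, was at 13.37, 13.65 and 13.64. CHGA, chromogranin A, was at 13.15, 13.42 and 13.41, and DDC, the decarboxylase between TH and DBH, was at 12.37, 12.54 and 12.38. The chromogranin relatives SCG2 (mean 12.18) and CHGB (mean 11.77) and the amine-degrading enzyme MAOA (mean 11.68) followed, with SCG3 (mean 10.64), and CPE (9.35), GCH1 (9.26) and MAOB (7.20) lay lower. In contrast TH, the rate-limiting enzyme of the pathway, was barely above background, at 5.95, 5.84 and 5.82, with detection p-values of 0.0212, 0.0198 and 0.0282. PNMT, which makes adrenaline, had a mean of 5.76, and SLC6A2, the noradrenaline transporter, one of 5.64, both inside the range of genes at the threshold. SLC18A1, the vesicular transporter of chromaffin cells, had 6.43, whereas SLC18A2, the neuronal form, and SLC6A3, the dopamine transporter, were above background on no array.

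**Figure D2:**
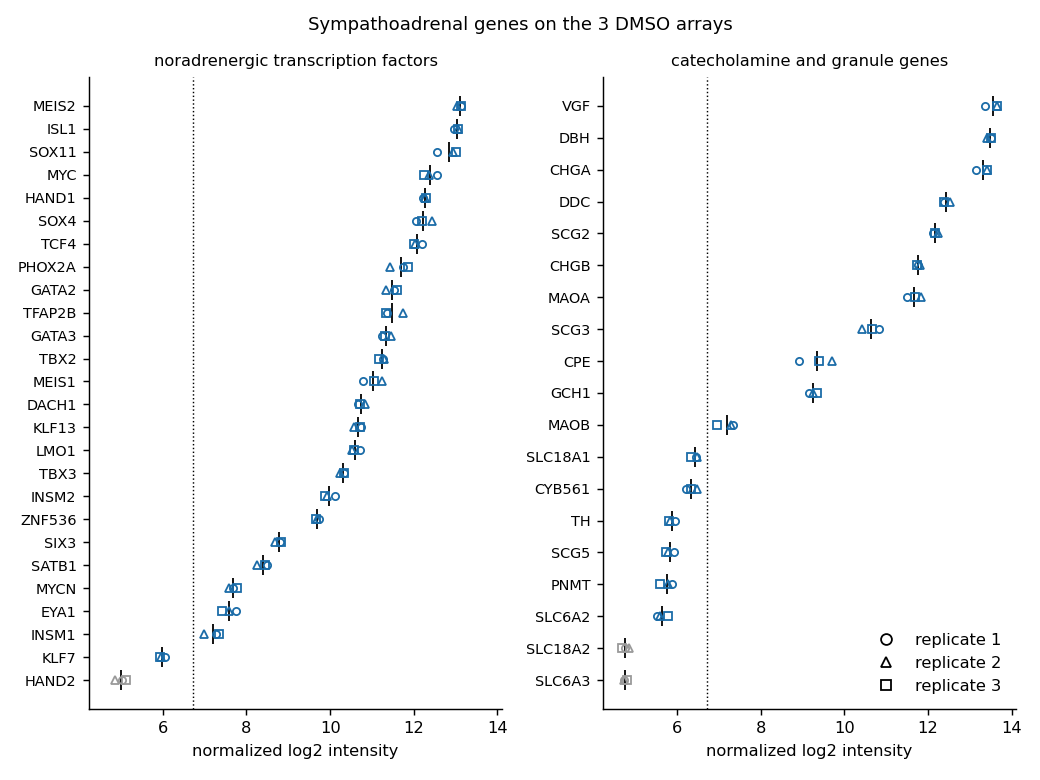
Each row is a gene with a probe, each open symbol its normalized log2 intensity on 1 of the 3 DMSO arrays and each black tick the mean; blue marks genes above background on all 3 arrays and grey those above it on none. The dotted line is the olfactory level of 6.72. HAND2 is the only grey gene at left, and at right TH, PNMT and SLC6A2 lie below the line while DBH, VGF and CHGA lie above 13.

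Sequence around the start of genes is a feature the detection rule did not use. The letters CG, the CpG dinucleotide, were counted in 300 bases of RefSeq promoter (GRCh38.p14), 250 before and 50 after the annotated start. CG reads the same on both strands. A promoter was at hand for 13410 of the named genes. The 250 bases before the start are printed 5′ to 3′ on the gene's strand, with each CG in capitals, for 6 genes that span the range of levels and of CpG content. They are TPT1, the brightest gene (chr13:45341184-45341433, minus strand), PHOX2A (chr11:72244177-72244426, minus), GATA3 (chr10:8045083-8045332, plus), DBH (chr9:133636113-133636362, plus), HAND2, which had no signal (chr4:173530230-173530479, minus), and ALB, the albumin gene of liver, also without signal (chr4:73404037-73404286, plus).
TPT1: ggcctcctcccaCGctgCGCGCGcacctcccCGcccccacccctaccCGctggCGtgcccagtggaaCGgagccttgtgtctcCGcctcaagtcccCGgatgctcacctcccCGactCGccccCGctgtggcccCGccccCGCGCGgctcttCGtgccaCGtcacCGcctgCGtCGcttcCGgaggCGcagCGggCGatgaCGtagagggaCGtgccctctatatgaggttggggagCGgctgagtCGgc
PHOX2A: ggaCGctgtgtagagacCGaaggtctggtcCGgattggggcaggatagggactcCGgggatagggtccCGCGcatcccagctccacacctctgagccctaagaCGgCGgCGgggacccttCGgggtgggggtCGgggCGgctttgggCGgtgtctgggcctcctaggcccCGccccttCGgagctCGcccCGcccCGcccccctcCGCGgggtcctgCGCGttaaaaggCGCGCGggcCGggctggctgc
GATA3: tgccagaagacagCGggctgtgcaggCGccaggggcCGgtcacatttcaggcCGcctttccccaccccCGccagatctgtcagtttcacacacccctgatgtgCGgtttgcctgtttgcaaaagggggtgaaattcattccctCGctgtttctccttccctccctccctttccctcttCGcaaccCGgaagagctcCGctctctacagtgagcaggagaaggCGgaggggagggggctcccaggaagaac
DBH: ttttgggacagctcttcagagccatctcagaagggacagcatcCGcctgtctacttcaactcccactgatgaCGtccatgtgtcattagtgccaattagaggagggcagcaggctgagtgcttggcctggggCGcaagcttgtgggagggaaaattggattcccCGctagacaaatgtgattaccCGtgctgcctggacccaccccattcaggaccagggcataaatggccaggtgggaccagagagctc
HAND2: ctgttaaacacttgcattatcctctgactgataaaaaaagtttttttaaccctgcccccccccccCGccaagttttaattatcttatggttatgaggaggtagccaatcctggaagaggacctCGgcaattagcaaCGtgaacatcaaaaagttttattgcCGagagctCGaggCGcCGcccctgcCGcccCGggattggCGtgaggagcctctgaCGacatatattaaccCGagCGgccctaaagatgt
ALB: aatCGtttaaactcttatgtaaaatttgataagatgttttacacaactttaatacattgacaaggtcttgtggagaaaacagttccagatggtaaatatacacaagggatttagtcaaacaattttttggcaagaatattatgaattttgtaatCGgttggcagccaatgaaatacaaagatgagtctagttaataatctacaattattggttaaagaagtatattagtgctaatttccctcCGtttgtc

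Over the full 300 bases the promoter of TPT1 held 37 CG, that of PHOX2A 34, GATA3 16, HAND2 15, DBH 8 and ALB 4. DBH was therefore a bright gene with few CpG, and HAND2 a gene without signal that had about as many as GATA3. Across genes, promoters of the 8594 detected genes held a median of 26 CG (quartiles 18 and 34), and 11.5% of them held fewer than 10. Promoters of the 4114 genes without signal held a median of 8 (quartiles 3 and 24), and 52.9% held fewer than 10. With olfactory receptors left out, 3875 genes without signal remained, with a median of 9. All 27305 promoters of the table, many of genes not on the array, had a median of 14. Genes above background on 1 or 2 arrays (n = 702) had a median of 17, and 35.0% of them held fewer than 10. Within the detected genes divided by level into 5 bins of equal size, the median was 22 in the dimmest bin and 27 in each of the others. The share with fewer than 10 fell along the level, from 25.9% in the dimmest bin through 11.3%, 7.8% and 6.5% to 6.1% in the brightest.

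The letters TATAAA, looked for on the gene's strand from 50 to 11 bases before the start, were in 1.72% of the detected genes' promoters, in 7.61% of those without signal and in 2.81% of all promoters. None of the 6 printed promoters holds them in that window. Of 52 detected ribosomal protein genes with a promoter the median was 24 CG, while 285 olfactory receptor promoters had a median of 1. Detected noradrenergic transcription factors had a median of 17 (n = 18) and detected catecholamine and granule genes one of 21.5 (n = 10), against 26 for all detected genes. These are descriptions over genes, which are not independent replicates, and a match or its absence is no statement about a factor's binding.

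**Figure D3:**
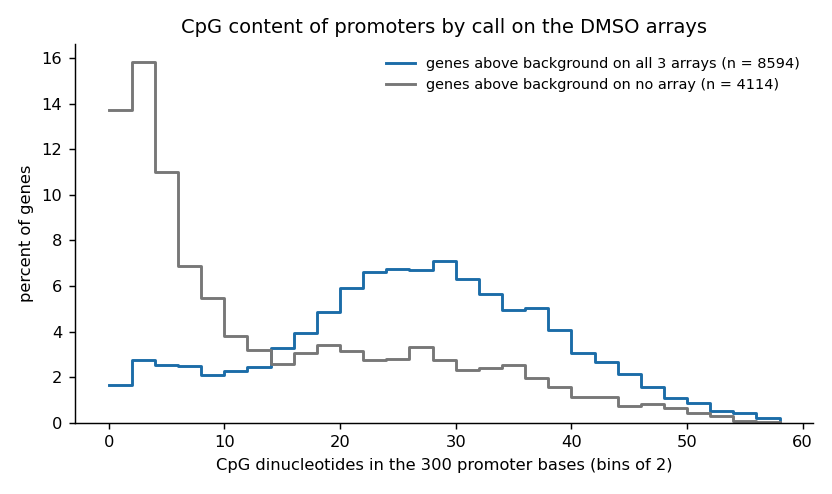
The lines give the percent of genes by number of CpG dinucleotides in the 300 promoter bases, in bins of 2, for 8594 genes above background on all 3 DMSO arrays (blue) and 4114 above background on none (grey). The grey line peaks below 4 CpG, and the blue line is broad, around its median of 26.

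Neuronal structure genes were almost all detected, 28 of 30 (93.3%, against 62.3% of all named genes), with a median level of 11.64. All 28 were above the olfactory level. DPYSL2, a collapsin response mediator of axon growth, was at 13.68, 13.61 and 13.62. TUBB3, the neuronal β-tubulin used as a marker of young neurons, was at 13.61, 13.36 and 13.46, and UCHL1, a neuronal ubiquitin hydrolase, was at 13.55, 13.31 and 13.42. ELAVL4, an RNA-binding protein of neurons, had a mean of 13.25, the stathmin STMN3 one of 13.13 and CRMP1 one of 12.91. RBFOX3, the NeuN antigen of mature neurons, was above background on no array. Synaptic genes were detected in 23 of 25 cases (92.0%, against 62.3% of all named genes). Only 16 of the 25 were above the olfactory level (64.0%, against 51.0% of all named genes). SNAP25, a membrane fusion protein of the nerve terminal, was at 13.04, 13.75 and 13.55, lower on replicate 1 than on the others. SYT4 was at 13.23, 13.42 and 13.41, and STX1A, a partner of SNAP25, at 11.43, 11.29 and 11.51. SYN3 and SV2B had no signal.

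Markers of other transmitter types were mostly without signal, whereas 62.3% of all named genes were detected. Of 7 glutamate and GABA genes with a probe none was detected, among them the vesicular transporters SLC17A6, SLC17A7, SLC17A8 and SLC32A1 and the GABA-making enzymes GAD1 and GAD2. Of 7 cholinergic genes 1 was detected, the factor LHX3 at 6.19, and CHAT, ACHE and SLC5A7 were above background on no array. FEV, a transcription factor of serotonin neurons, was detected at 9.43, 8.92 and 9.20, while TPH1, TPH2 and SLC6A4, the enzymes and transporter of serotonin, were not. Of 10 midbrain dopamine genes only EN1 was detected, at 6.34, below the olfactory level, and NR4A2, PITX3, FOXA2 and LMX1B had no signal.

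Genes of the mesenchymal-type state were mixed. Of 23 with a probe 12 were detected (52.2%, against 62.3% of all named genes) and 10 had no signal. Above the olfactory level were 9 of the 23 (39.1%, against 51.0% of all named genes). TWIST1, a basic helix-loop-helix factor of the neural crest, was at 13.07, 12.81 and 12.92. VIM, vimentin, was at 11.18, 10.94 and 10.91, and S100A6 at 10.16, 10.69 and 10.64. CD44, the hyaluronan receptor, had 6.74, 7.45 and 7.29 on 1 probe, and its other probe was at background. The factors PRRX1, YAP1 and WWTR1, the receptors NOTCH2, NOTCH3 and AXL, fibronectin (FN1) and COL3A1 were above background on no array. In bulk RNA, fewer cells of a type and less RNA per cell cannot be told apart, so a low mixed signal could not be assigned to a subset of cells.

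Most markers of other cell types had no signal or lay below the olfactory level, whereas 62.3% of all named genes were detected. None of 6 erythroid genes with a probe was detected. Detected were 1 of 10 Schwann cell and glial genes (SOX10, mean 5.96), 1 of 11 immune genes (ITGAX, 6.58), 1 of 11 liver genes (SERPINA1, 6.37), 1 of 9 adrenal cortex genes (CYP11A1, 6.51) and 2 of 8 endothelial genes (KDR, 6.17, and ERG, 5.70). None of these was above the olfactory level. Epithelial genes were detected in 5 of 11 cases, led by EPCAM at 6.23, 6.79 and 6.58, and again none had a mean above the olfactory level. In muscle, TNNT1, a slow troponin, stood above it at 7.38, 7.72 and 7.70. S100B, GFAP, ERBB3, PTPRC, ALB, HBB, CDH5 and STAR, defining genes of glia, Schwann cells, leukocytes, liver, red cells, endothelium and adrenal cortex, were above background on no array. NES, the nestin of neural progenitors, was at 10.91, 10.73 and 10.98, and LIN28B, an inhibitor of let-7 microRNAs, at 9.30, 9.40 and 9.27, while SOX2, NANOG and LIN28A had no signal.

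**Figure D4:**
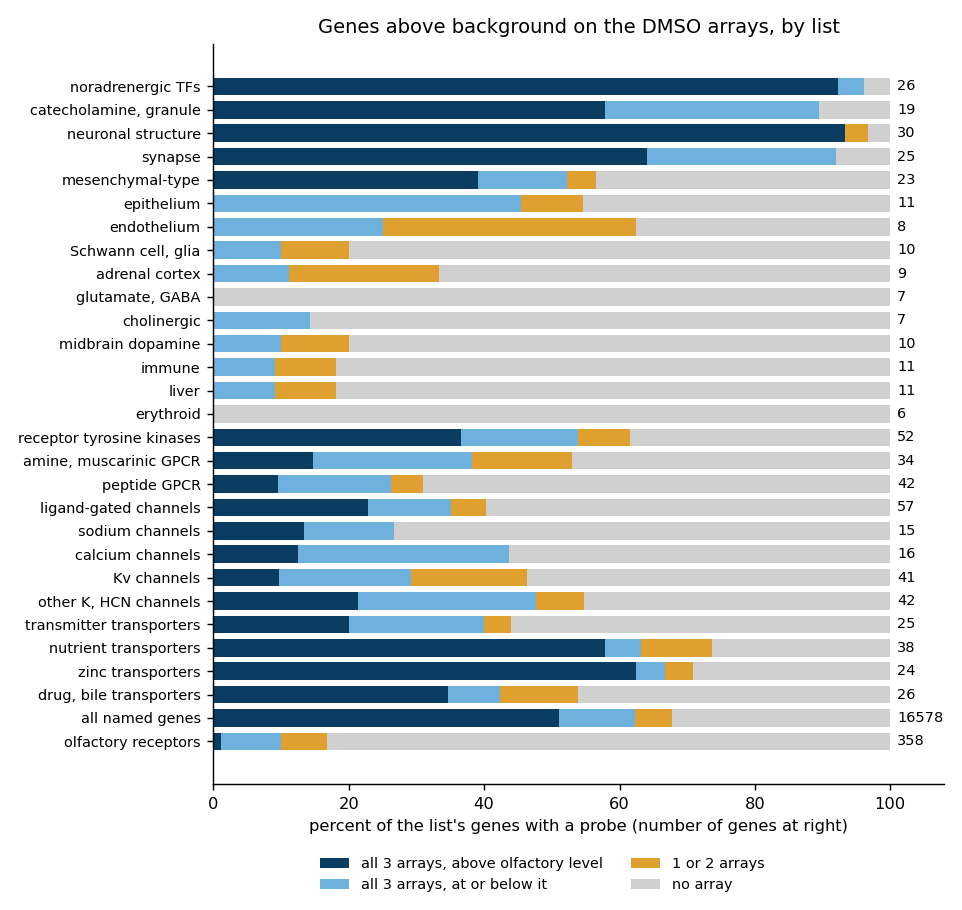
Each bar divides the genes of a list that have a probe, numbered at right, into those above background on all 3 DMSO arrays and above the olfactory level of 6.72 (dark blue), on all 3 arrays at or below it (light blue), on 1 or 2 arrays (orange) and on none (grey). Noradrenergic, neuronal and synaptic lists are nearly all blue, whereas of the lists drawn for other cell types only the mesenchymal-type genes have dark blue. The muscle, serotonin and pluripotency lists, which are not drawn, had 1 of 10, 1 of 4 and 2 of 7 genes above the olfactory level.

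Genes studied in neuroblastoma were detected in 16 of 18 cases (88.9%, against 62.3% of all named genes). Above the olfactory level were 14 of the 18 (77.8%, against 51.0% of all named genes). CCND1, the cyclin that drives entry into the cell cycle, was at 13.36, 13.20 and 13.18. ALK, a receptor tyrosine kinase that is mutated in part of neuroblastomas, was at 11.76, 11.77 and 11.83, with an SD of 0.04, below the median of 0.13 over all detected genes. GPC2, a cell-surface proteoglycan of developing neurons, was at 11.98, 11.98 and 12.17, and DLK1, a Notch ligand relative of chromaffin cells, at 11.70, 11.85 and 12.03. KIF1B had a mean of 12.56, CAMTA1 10.85 and LMO1 10.60. CASP8, which starts death-receptor apoptosis and is often silenced in neuroblastoma, and ST8SIA1, the GD3 synthase, were above background on no array. Of 33 proliferation genes 31 were detected (93.9%, against 62.3% of all named genes), with a median of 10.49. MCM7, part of the replicative helicase, was at 13.61, 13.62 and 13.60, CDK6 at 12.71, 12.93 and 12.76 and TOP2A at 12.21, 11.97 and 12.11. CCND2 and CDKN2B had no signal.

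Secreted signals were detected less often than genes at large. Of 27 neuropeptide genes 12 were detected (44.4%, against 62.3%). VIP, vasoactive intestinal peptide, was at 11.54, 11.36 and 11.50, the brightest of them. GAL, galanin, was at 10.02, 10.14 and 10.22 and NMU, neuromedin U, at 10.06, 10.03 and 10.07. CALCB followed at 9.53 and NMB at 8.27, while NPY, co-released with noradrenaline, was near the olfactory level with a mean of 6.75. POMC, TAC1, CCK, CRH, OXT and ADCYAP1 had no signal. Of 44 growth factor genes 18 were detected (40.9%). MDK, midkine, a heparin-binding growth factor, was at 13.38, 13.28 and 13.36. DLL3, a Notch ligand, had 10.40 and VEGFB 9.21. VEGFA, the angiogenic factor, was at 8.16, 7.23 and 8.06, lower on replicate 2. IGF1, IGF2, FGF1, FGF9, EGF and BMP4 were above background on no array.

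Taken as receptors of all kinds, 138 of 290 genes were detected (47.6%, against 62.3% of all named genes, the value to set beside each share detected that follows) and 91 were above the olfactory level (31.4%, against 51.0% of all named genes). Receptor tyrosine kinases were detected in 28 of 52 cases (53.8%). After ALK came RYK, a Wnt receptor, at 11.60, 11.49 and 11.43, and DDR2, a collagen receptor, at 10.52, 10.60 and 10.36. RET, the receptor of GDNF-family ligands, was at 10.20, 10.32 and 10.38, and PDGFRA was at 9.88, 10.33 and 10.32. EPHA2 had a mean of 10.16, PDGFRB 10.00 and NTRK2, the BDNF receptor, 9.68. FGFR1, FGFR4, ERBB3, ERBB4, EPHA4, EPHA7, AXL and CSF1R had no signal. Of 36 other growth factor and cytokine receptors 19 were detected (52.8%), all above the olfactory level, with IFNGR2 at 11.86, 11.88 and 11.89, and GFRA2, a partner of RET, at 11.31, 11.03 and 11.14. The neurotrophin receptor NGFR, the GDNF receptor GFRA1, TGFBR2, NRP1, NRP2 and NOTCH1 had none.

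G protein-coupled receptors of transmitters were sparse. For amines and acetylcholine 13 of 34 were detected (38.2%) and 5 of 34 were above the olfactory level by the mean. ADRA1A, an α1-adrenergic receptor, was at 8.13, 7.77 and 8.04, ADRA1D at 7.50, 7.41 and 7.65, and CHRM2, a muscarinic receptor, had a mean of 7.25 ± 0.29 (SD, n = 3). DRD1, DRD5, ADRB1, HTR1A, CHRM4 and HRH1 were above background on no array. Of 42 peptide receptors 11 were detected (26.2%), and 4 of the 42 were above the olfactory level (9.5%, against 51.0% of all named genes). VIPR2, which binds VIP, was at 8.03, 7.98 and 8.22, so that a peptide and a receptor for it were both detected, whereas the galanin receptors GALR1, GALR2 and GALR3 and the neuromedin U receptors NMUR1 and NMUR2 were not. Of 49 receptors of lipids, nucleotides and other ligands 18 were detected (36.7%), and 10 of the 49 were above the olfactory level (20.4%). CXCR4, the chemokine receptor of CXCL12, was the brightest, at 12.18, 12.31 and 12.30. A further CXCR4 probe had a mean of 11.06 and another was at background, at 4.87. GRM8, a metabotropic glutamate receptor, was at 11.21, 11.72 and 11.54, and LPAR1, a receptor of lysophosphatidic acid, at 10.31, 10.30 and 10.36. ACKR3, S1PR1, P2RY1, ADORA3 and GRM5 had no signal.

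Nuclear receptors were detected in 22 of 39 cases (56.4%). NR2F6, an orphan receptor, was at 10.64, 10.62 and 10.82, RARA, a retinoic acid receptor, at 10.45, 10.63 and 10.58, and ESRRG at 10.18, 10.63 and 10.44. RARB had a mean of 9.40 and the retinoid partner RXRB one of 9.87. NR3C1, the glucocorticoid receptor, was at background on all 3 of its probes, and ESR1, ESR2, PGR, VDR and NR3C2 were also without signal. Of 40 axon guidance and adhesion receptors 27 were detected (67.5%, close to the 62.3% of all genes). ITGB1, an integrin, was at 12.47, 12.78 and 12.68 and CDH2, N-cadherin, at 12.11, 12.23 and 12.12. UNC5A, a netrin receptor, had a mean of 10.80 ± 0.26 (SD, n = 3), while DCC, another netrin receptor, and NRP1 had no signal.

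Transporters were detected in 78 of 141 cases (55.3%, against 62.3%). Of 25 carriers of transmitters 10 were detected (40.0%), and 5 of the 25 were above the olfactory level (20.0%). SLC29A4, a low-affinity monoamine transporter of the plasma membrane, was at 11.72, 11.71 and 11.95, brighter than any other of the class, while SLC6A2 was near background as given above. SLC6A15, a carrier of neutral amino acids, was at 9.26, 9.80 and 9.51. The glutamate carriers SLC1A2 and SLC1A1 had means of 7.62 and 7.46, and SLC1A3 had no signal. Of 38 nutrient transporters 24 were detected (63.2%). TFRC, the transferrin receptor, was at 12.68, 12.72 and 12.58, SLC44A1, a choline carrier, at 11.22, 11.58 and 11.53, and SLC38A1, a glutamine carrier, at 11.49, 11.61 and 10.90. SLC38A1 was thus lower on replicate 3 than on the others. The glucose carriers SLC2A2, SLC2A3 and SLC2A4, and the cystine carrier SLC7A11, were above background on no array.

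Zinc transporters were detected in 16 of 24 cases (66.7%). SLC30A9 was at 11.21, 11.84 and 11.70, SLC39A1 at 10.68, 10.61 and 10.82 and SLC30A7 at 10.47, 10.65 and 10.68. SLC30A8, the islet granule form, and SLC30A10 had none. Of 26 drug and bile transporters 11 were detected (42.3%). ABCB1, the multidrug efflux pump P-glycoprotein, was at 11.04, 11.06 and 10.98, whereas ABCG2, ABCC3 and the liver uptake carriers SLCO1B1, SLCO1B3 and SLC10A1 were without signal. ABCA3 had a mean of 10.52 and ABCC5 one of 10.41. Of 28 ion pumps and exchangers 17 were detected (60.7%), among them ATP1B1, a subunit of the sodium pump, at 12.18, 12.51 and 12.55, and ATP2A2, the calcium pump of the endoplasmic reticulum, at 11.55, 11.72 and 11.71. SLC12A5, the chloride exporter of mature neurons, was above background on no array, and SLC12A2, the chloride importer of immature ones, had a mean of 7.05.

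Ion channels had a smaller share detected than receptors or transporters, 98 of 235 (41.7%, against 62.3% of all named genes), and 51 of the 235 were above the olfactory level (21.7%, against 51.0%). Voltage-gated sodium channel genes and their relatives were detected in 4 of 15 cases. SCN2A was at 9.07, 9.24 and 8.45, lower on replicate 3, and SCN9A at 7.86, 7.81 and 8.15. SCN1A, SCN3A, SCN8A and SCN10A had no signal. For calcium channels 7 of 16 were detected. CACNA2D2, an auxiliary subunit, was at 10.88, 10.83 and 10.98, and CACNA1C, the pore of the L-type channel, at 7.97, 8.10 and 8.19. The other detected members, CACNA1G, CACNA2D1, CACNB1, CACNB2 and CACNA1B, the N-type pore, had means under the olfactory level. CACNA1A, CACNA1D, CACNA1E and CACNA1H were above background on no array.

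Among voltage-gated potassium channel genes 12 of 41 were detected (29.3%). Only 4 of the 41 were above the olfactory level (9.8%, against 51.0% of all named genes), and 5 passed at p under 0.01. KCNH2, the hERG channel, was at 10.45, 10.23 and 10.29, and KCNS3, a silent modulatory subunit, at 7.38, 8.07 and 8.01. KCNA1, KCNC1, KCND2, KCNQ3 and KCNQ5 had no signal. Of 42 other potassium and HCN channel genes 20 were detected (47.6%), and 9 of the 42 were above the olfactory level (21.4%). KCNT1, a sodium-activated channel, was at 9.80, 10.00 and 10.05, HCN3, a pacemaker channel, at 9.76, 9.58 and 9.88, and KCNK3, a leak channel, at 8.82, 8.81 and 8.81. KCNJ2, KCNJ6, HCN2 and HCN4 were without signal.

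Ligand-gated channels were detected in 20 of 57 cases (35.1%), with 13 of the 57 above the olfactory level (22.8%). The nicotinic subunits of autonomic ganglia were among them. CHRNA3 was at 9.99, 9.79 and 10.00, CHRNA5 at 8.21, 8.29 and 8.21 and CHRNB4 at 8.11, 7.67 and 8.16. CHRNA7, which forms a channel on its own, had a mean of 7.55. GRIN1, the obligatory subunit of NMDA receptors, was at 9.13, 9.06 and 9.13, while its partners GRIN2A, GRIN2B, GRIN2C and GRIN2D had no signal. GLRB, the glycine receptor β subunit, was at 8.79, 8.81 and 8.80, and the α subunits GLRA1, GLRA2 and GLRA3 had none. P2RX7, an ATP-gated channel, had a mean of 8.61. Of the 64 TRP, calcium release, chloride and related channel genes 35 were detected (54.7%), led by the mitochondrial porins VDAC2 at 12.99, 13.10 and 12.82, VDAC3 at 12.53, 12.44 and 12.48, and VDAC1 at 11.48, 11.49 and 11.50. TRPA1, TRPM8, TRPM2, CFTR, GJA1 and ANO1 were above background on no array.

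Of the 41 gene lists, 10 had a larger share detected than all named genes and 31 a smaller one. The 10 were the noradrenergic, catecholamine, neuronal structure, synaptic, neuroblastoma, proliferation, neurodegeneration, axon and adhesion, nutrient and zinc transporter lists. The nutrient (63.2%), zinc (66.7%) and axon and adhesion (67.5%) shares were close to the 62.3% of all named genes, and the others were 87.5% or more. Above the olfactory level the axon and adhesion share was 42.5%, below the 51.0% of all named genes. The lists were chosen with earlier results of these data known, so their shares are descriptions and no test. Of 24 genes tied to neurodegenerative disease 21 were detected (87.5%), among them SOD1, superoxide dismutase, at 13.49, 13.56 and 13.50, and PARK7 at 13.32, 13.18 and 13.36. SNCG and APOE had no signal.

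The HOX genes, which carry the position of a cell along the body axis, were detected in 16 of 29 cases (55.2%). HOXC4 had a mean of 10.57, HOXC6 10.38, HOXD8 9.87, HOXD9 8.97 and HOXD3 8.85. HOXC11, HOXC12, HOXD11, HOXD12, HOXD13 and HOXB13, at the posterior end of their clusters, were above background on no array, as were HOXB7 and HOXB8 from nearer the middle, and HOXC13 was detected at 6.89. HOXC6 had another probe at 6.33, about 4 units lower. Solute carriers as a family were detected in 195 of 345 cases (56.5%), and zinc finger ZNF genes in 293 of 392 (74.7%).

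The 3 arrays agreed closely in most genes. Across the 10334 detected genes, which are not independent replicates, Pearson correlations between arrays were 0.990 for replicates 1 and 2, 0.994 for 1 and 3 and 0.994 for 2 and 3. The median absolute difference was 0.18 log2 units between replicates 1 and 2, 0.14 between 1 and 3 and 0.13 between 2 and 3. Before normalization replicate 2 was brighter, with a mean intensity of 939 against 587 and 532, but the share of probes above background was similar, 59.8% against 59.6% and 58.9%. No 2 arrays held identical values.

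The SD over arrays had a median of 0.13, a 5th percentile of 0.03 and a 95th percentile of 0.31. It was larger in dim genes, with a median of 0.16 in the dimmest of 5 equal bins by level and 0.10 in the brightest, and 30 genes had an SD above 0.5. On the linear scale the median corresponds to a coefficient of variation of 8.93%. Among the 100 genes of largest SD, replicate 1 was highest in 32 and lowest in 37, replicate 2 highest in 60 and lowest in 17, and replicate 3 highest in 8 and lowest in 46. Over all detected genes replicate 1 was farthest from the others in 39.0%, replicate 2 in 37.5% and replicate 3 in 23.5%.

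The 10 genes of largest SD were SLX4IP, PROX1, DNAJB14, ID2, LIMS1, SMAD9, ZNF121, ASF1B, CEP170 and CHST15, with SDs from 0.61 to 0.70. PROX1, a homeodomain factor, was at 9.74, 10.22 and 8.88, and SLX4IP at 6.24, 7.04 and 5.65. SMAD9, a BMP signal transducer, was at 7.81, 8.45 and 7.18. In these 3 genes replicate 2 was highest and replicate 3 lowest. ID2, an inhibitor of helix-loop-helix factors, was at 8.55, 7.41 and 7.44, high on replicate 1, and ASF1B, a histone chaperone, was at 9.31, 8.10 and 8.57, also highest there. LIMS1 was at 8.42, 8.41 and 7.30, low on replicate 3, and ZNF121 at 8.50, 9.75 and 9.24, low on replicate 1. What sets the arrays apart in these genes was not tested.

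**Figure D5:**
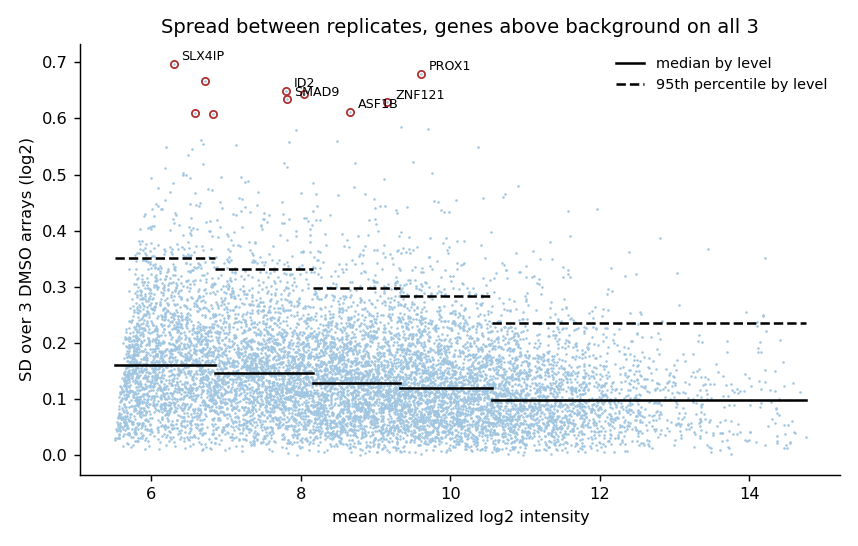
Each point is a gene above background on all 3 DMSO arrays, with its mean normalized log2 intensity on the horizontal and its SD over the arrays on the vertical axis. Black lines give the median (solid) and the 95th percentile (dashed) in each of 5 equal bins of genes by level, and red circles mark the 10 largest SDs. The median falls from 0.16 in the dimmest to 0.10 in the brightest bin.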

How the data were processed

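Total RNA was isolated with TRIzol, turned into biotinylated cRNA and hybridised to Illumina arrays, per the labels' protocols. The authors deposited for each array a signal intensity per probe, not normalized between arrays. The detection p-value beside it is so named per the file headers. The scanner software is not given in the sources used here. Their processed intensity values, with the same sorted values on every array, served as an alternative. The 3 DMSO arrays were processed on their own in R 4.3.3 with limma 3.58.1 (neqc: normexp background from the detection p-values, offset 16, quantile normalization, log2), and tabulated with Python 3.11.15 and pandas 2.3.3. The procedure was checked on simulated data, in which probes without signal followed the same distribution as the negative controls. That check cannot show how often real probes are called without their transcript. The platform annotation gave 1 gene symbol for 19715 of 22184 probes (19695 updated by gene ID, 20 kept as listed), several for 0 and none for 2469.

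A gene was read from the probe above background on the most arrays, then of highest mean. With 1 group there was no comparison of groups and no test. The number of arrays limits the precision. Genes and lists were chosen with earlier results of these data known. Named were the 25 brightest genes, the lineage markers, up to 8 detected members of each list by brightness and up to 8 without signal, and the 10 genes of largest SD; further members, such as MYCN, TBX2, CPE, GCH1, MAOB, PNMT, SLC6A2, SLC12A2 and CHRNA7, were named after their values were seen. Promoters came from RefSeq (GRCh38.p14). Alternatives were stricter or looser detection rules, other background and scaling choices, other probes and leaving out each array.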

Additional observations from a re-analysis of the deposited data

Results flagged for a closer look

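Of the 2469 probes that carried no gene symbol in the annotation used, 1130 were above background on all 3 DMSO arrays (45.8%), against 11393 of 19715 named probes (57.8%). They are in the counts of probes but in no count of genes, since the genes they read could not be named, and they stand out as signal outside the main measurement.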

How the results depend on the processing

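The count of 10334 detected genes was 8840 with a detection p-value under 0.01 and 9718 with Benjamini-Hochberg adjusted detection p-values. It was 10757 where 2 of the arrays sufficed, and 10472 to 10481 with any array left out. Letting the brightest probe alone decide gave 10334. That rule could hardly give another count, since the detection p-value follows a probe's brightness on its array. The median SD of 0.13 became 0.51 with no scaling between arrays, where the brightness of replicate 2 remains. Under the other choices of background, offset, scaling and filter it lay between 0.09 and 0.15, and between 0.09 and 0.13 with 1 array left out. The median level of 8.74 became 8.87 without background correction, 8.10 with all 6 arrays normalized together, 8.37 in the authors' processed values and 8.60 with a gene's detected probes averaged, and ranged from 8.38 to 8.93 with 1 array left out. Levels are therefore relative to the arrays processed together, and across genes they correlated with the reported ones at 0.978 or more under every such setting.

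Of the 25 brightest genes, 23 stayed among the 25 in raw intensities, 25 in the processed values, 20 with probes averaged and 22 to 23 with 1 array left out. The 867 genes with split probes became 921 at p under 0.01. Of 64 lists and families, 38 kept a count within 1.5 times at p under 0.01, and 31 at the olfactory level, chosen after the data were seen, so counts of dim lists rest on genes near background. Single probes limit what absence of signal shows. No paired analysis was possible because the arrays form 1 group and no result comes from a test.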

Other observations

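Antigen presentation was a group with little signal, listed after its values were seen. Of 17 genes with a probe 6 were detected (35.3%, against 62.3% of all named genes). B2M, the light chain of class I molecules, was at 11.41, 11.29 and 11.29. The heavy chains HLA-B (4.73), HLA-C (5.00) and HLA-E (5.30) were at background on all 3 arrays, as were the peptide transporter TAP1, TAP2 on both of its probes, the immunoproteasome subunit PSMB8 on both of its probes and NLRC5, the activator of class I genes. PDIA3, a chaperone of all cells, was also at background, at 4.88. The chaperones CALR (10.45), CANX (8.13) and TAPBP (8.62) were detected. Heavy chain genes vary between people, and whether the probes fit the alleles of this line was not tested. Of 18 class I and class II genes as a family 3 were detected (16.7%, against 62.3% of all named genes). The brightest, HLA-DMA, had a mean of 6.7255, barely above the olfactory level of 6.7239, and the others lay below it.

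Of 9 caspase genes 2 were detected, CASP2 at 10.09 and CASP9, the initiator of the mitochondrial pathway, at 8.61. CASP8, CASP10, CASP1, CASP4, CASP5 and CASP14 were above background on no array, and CASP6 lay in between. Of 51 cytochrome P450 genes 13 were detected (25.5%), led by CYP2R1, a vitamin D hydroxylase, at 10.08 and CYP4V2 at 8.83, while CYP1A1, CYP1A2, CYP2E1 and CYP19A1 had no signal. Of 13 interferon α genes none was detected.

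The ID genes, targets of BMP signalling, were singled out after ID2 was seen among the largest SDs. ID1 was at 7.77, 6.91 and 7.27, and ID3 at 8.58, 7.45 and 7.79. ID1, ID2 and ID3 were thus all highest on replicate 1, while ID4, with a mean of 5.76 ± 0.25 (SD, n = 3), was lowest there. The ID4 mean was below the olfactory level and inside the range of genes at the threshold, so its order between arrays is uncertain. SMAD9, the BMP signal transducer given above, was highest on replicate 2.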
